A study of Mus musculus with 2 samples.

Results

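The transcripts of 9 extracellular matrix genes were followed across the nuclei of the injured mouse cortex: the lecticans Acan, Bcan, Ncan and Vcan, the link proteins Hapln1 and Hapln4, the tenascins Tnr and Tnc, and the receptor phosphatase Ptprz1. They are 9 of 31053 genes in the matrices and were chosen by name, with earlier results of these data known. Nuclei came from the ipsilateral cortex of mice over 7 weeks of age that carried Atf3-CreER and the Cre-dependent nuclear envelope reporter Sun1-sfGFP, 7 days post injury (dpi) after a closed-skull mild traumatic brain injury (mTBI), with tamoxifen at 4 and 5 dpi. GFP+ nuclei were sorted from 2 pools of 4 animals, 1 of males and 1 of females by their titles (the sex field of the library called female here reads male), so every nucleus carries both alleles, the injury and tamoxifen, and no uninjured nuclei were analysed here. The reporter marks cells that used the Atf3 locus when tamoxifen was given, and the animals of a pool cannot be separated.

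Lecticans are chondroitin sulfate proteoglycans that bind hyaluronan. Link proteins hold that bond together, tenascin-R joins lecticans to each other, and together they form the perineuronal net, a coat best known around fast-spiking parvalbumin interneurons. Aggrecan, the product of Acan, is its core component, whereas brevican, neurocan and versican are also made by glia. Ptprz1 encodes a receptor phosphatase whose secreted form, phosphacan, is itself a chondroitin sulfate proteoglycan, and Tnc encodes tenascin-C, which is known to increase in injured tissue.

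Each gene was measured as UMIs (unique transcript molecules) summed over the nuclei of a label and library, normalised to the total UMIs of that sum (CPM), and as the share of nuclei with at least 1 UMI. The deposited cell labels were used: 9 neuronal labels with at least 50 nuclei, namely 6 excitatory and 3 inhibitory, and the labels Astro, Oligo, VLMC, Micro-PVM and Unknown. They held 7379 of 8171 labelled nuclei, 2499 of them neuronal. The libraries held 10823136 UMIs (male) and 23127444 UMIs (female) in labelled nuclei, a median of 1742 and 3710 per nucleus, so sex, pool and depth cannot be told apart, and only 1 called barcode was shared by both libraries.

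The labels were checked against marker genes. Astro nuclei held all 6 astrocyte markers at a summed 14739.7 and 11971 CPM in the male and female library, Oligo nuclei all 6 oligodendrocyte markers at 12481 and 10307 CPM, and Micro-PVM nuclei all 6 microglial markers at 3376 and 3663 CPM. Pvalb itself was at 1.58 and 0.516 CPM in the label named for it, 1 UMI per library, and Sst at 3.77 and 0 CPM in its own. The 4 Pvalb markers summed to 2693 and 1998 CPM in the Pvalb label, carried by Erbb4 and Kcnc2. In Vip they were higher, at 4114 and 3884 CPM, and Oligo had 2237 and 1337 CPM. The 3 L5 PT markers summed to 74.7 and 55.8 CPM in L5 PT, with Fezf2 at 3.06 and 5.78 CPM. They were higher in L6 CT (110 and 121 CPM) and Unknown (357 and 335 CPM), so they did not single out L5 PT. The 2 L2/3 IT markers summed to 1269 and 1162 CPM in L2/3 IT CTX-1 and to 649 and 613 CPM in L2/3 IT CTX-2. Pvalb (1042 and 1017 CPM) and Sst (749 and 751 CPM) were above L2/3 IT CTX-2. Inhibitory markers were at 540 and 462 CPM in inhibitory and 15.9 and 9.62 CPM in excitatory labels. The excitatory label with the most was L6 IT, at 105 and 39.0 CPM. Its nuclei were shallow, at medians of 1800 and 2708 UMIs, and it also held precursor markers of oligodendrocytes at 221 and 156 CPM. Its levels below may therefore not be those of 1 cell type. The VLMC (vascular and leptomeningeal cell) label had Slc6a13 at 177 and 253 CPM but Lum at 2.05 and 5.97 CPM and Igf2 at 4.11 and 0.995 CPM. Unknown nuclei held neuronal markers at 6023 and 5959 CPM, with both Slc17a7, at 222 and 137 CPM, and the interneuron gene Adarb2, at 2102 and 1799 CPM, and are given no cell type here. Microglial markers were also found in every neuronal label, between 284 and 1656 CPM in sum, and barcodes not called as nuclei carried the neuronal gene Snap25 at 704 and 628 CPM and the microglial gene Csf1r at 224 and 179 CPM, so the Micro-PVM label and those barcodes are given below as the background of each gene.

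In GRCm38 the lecticans lie next to link protein genes. Acan, on chromosome 7 at 79053483 to 79115099, lies 2 bases from Hapln3. Ncan, on chromosome 8 at 70093085 to 70120873, lies 2222 bases from Hapln4. Vcan, on chromosome 13 at 89655312 to 89742509, lies 43659 bases from Hapln1, and Bcan, on chromosome 3 at 87987531 to 88000230, lies 21519 bases from Hapln2. No annotated gene stands between the partners of any of these 4 pairs. Tnr, on chromosome 1 at 159523769 to 159931729, overlaps the annotated same-strand transcripts Gm37731 and Gm10530. Whether this affects its UMI count was not tested.

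To show the lecticans, the core of the net, beside the tenascin that joins them, the 250 bases before the RefSeq start site of the 4 lecticans and Tnr are given 5′ to 3′ on the strand of the gene (GRCm38.p6, RefSeq). Capitals mark matches, on either strand, to the GC box GGGCGG or the TATA motif TATAAA; the AP-1 motif TGANTCA and the CRE motif TGACGTCA were searched as well. The windows are chr7:79052976-79053225 (Acan, plus strand), chr3:88000357-88000606 (Bcan, minus), chr8:70120845-70121094 (Ncan, minus), chr13:89742513-89742762 (Vcan, minus) and chr1:159523519-159523768 (Tnr, plus).
Acan: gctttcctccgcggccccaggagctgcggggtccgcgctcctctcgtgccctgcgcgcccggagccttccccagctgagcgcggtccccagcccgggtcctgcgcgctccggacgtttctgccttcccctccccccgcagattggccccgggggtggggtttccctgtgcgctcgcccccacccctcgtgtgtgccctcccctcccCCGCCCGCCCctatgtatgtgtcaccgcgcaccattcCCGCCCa
Bcan: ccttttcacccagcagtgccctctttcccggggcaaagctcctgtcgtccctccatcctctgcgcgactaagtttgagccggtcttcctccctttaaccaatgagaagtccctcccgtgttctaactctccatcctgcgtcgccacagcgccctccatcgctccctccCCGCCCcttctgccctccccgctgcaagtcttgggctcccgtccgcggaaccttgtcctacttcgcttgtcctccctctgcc
Ncan: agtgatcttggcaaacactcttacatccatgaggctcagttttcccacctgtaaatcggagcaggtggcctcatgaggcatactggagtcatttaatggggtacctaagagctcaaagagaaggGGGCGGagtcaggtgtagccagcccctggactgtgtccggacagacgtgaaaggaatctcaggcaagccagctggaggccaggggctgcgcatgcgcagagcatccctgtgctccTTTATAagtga
Vcan: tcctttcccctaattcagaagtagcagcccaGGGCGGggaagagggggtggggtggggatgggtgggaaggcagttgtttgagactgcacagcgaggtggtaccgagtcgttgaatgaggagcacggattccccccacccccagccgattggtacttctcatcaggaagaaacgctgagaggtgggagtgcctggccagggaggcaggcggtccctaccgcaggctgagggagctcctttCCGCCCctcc
Tnr: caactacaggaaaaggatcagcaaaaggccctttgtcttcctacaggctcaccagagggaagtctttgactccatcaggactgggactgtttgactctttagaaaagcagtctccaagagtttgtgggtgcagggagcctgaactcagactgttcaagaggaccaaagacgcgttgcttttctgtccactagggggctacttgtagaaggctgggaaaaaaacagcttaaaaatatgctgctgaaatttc

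RefSeq entries were matched for 8 of the 9 genes, all but Hapln4. A GC box was found upstream of 6 of the 8, against 32.7% of 32851 mouse promoter windows of this length, and TATAAA upstream of 2, Ncan and Tnc, against 12.4%. None of the 8 windows held TGANTCA, found in 6.75% of all windows, or TGACGTCA, found in 1.55%. The Acan window was 74.4% G or C and held 3 GC boxes, of which 2 overlap, while the Tnr window was 46.8% G or C and held none of these motifs.

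**Figure D1:**
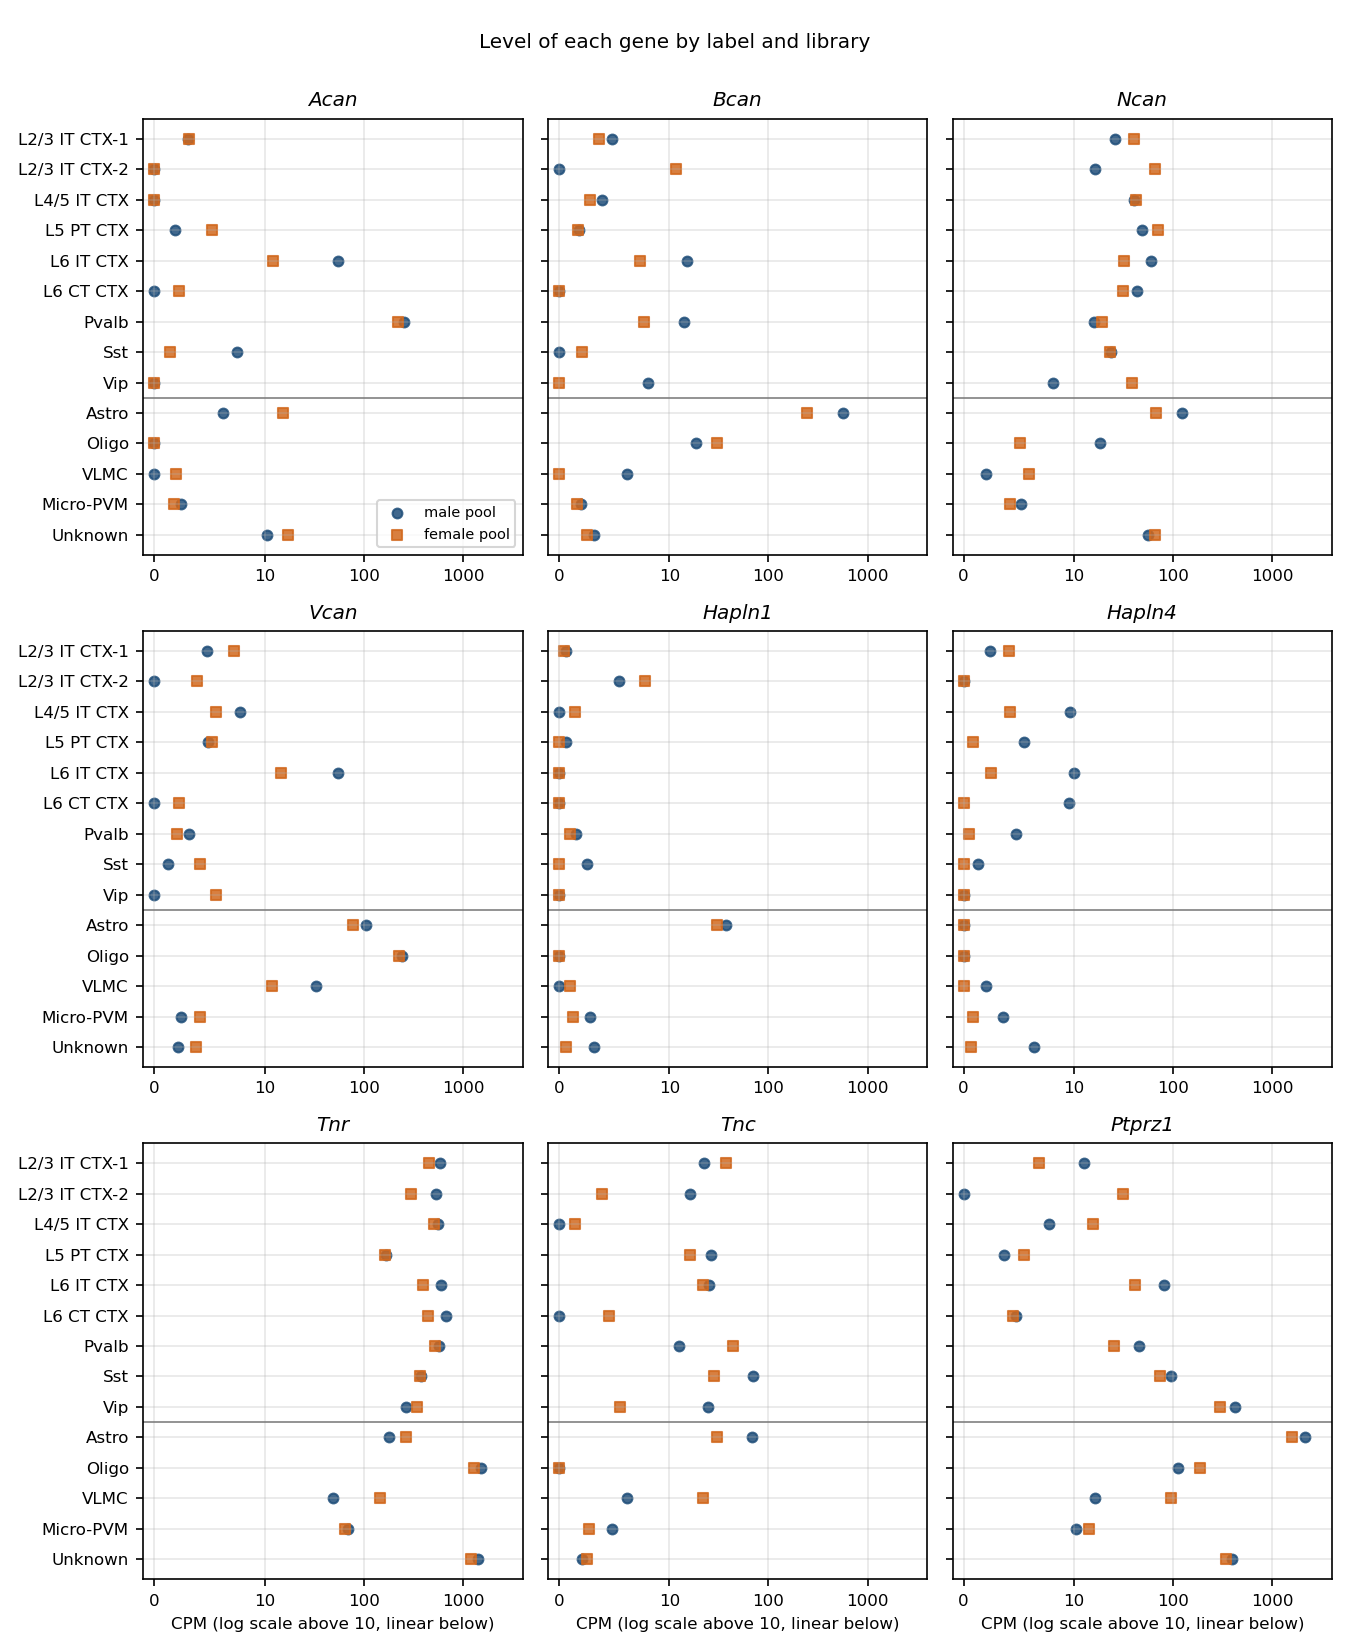
CPM of each of the 9 genes (x axis, logarithmic above 10 CPM and linear below) in each label (y axis; neuronal labels above the grey line, others below), with 1 point per library (circle, male pool; square, female pool). Acan stood out in the Pvalb label, Bcan and Ptprz1 in Astro, and Tnr was highest in Oligo and Unknown and lowest among neurons in L5 PT, while Hapln4 stayed at or below about 10 CPM throughout.

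Acan was found mostly in the Pvalb label. It stood there at 254 CPM (male) and 222 CPM (female), from 161 and 430 UMIs, and Pvalb nuclei held 82.5% of all Acan UMIs of the 14 labels. In the other 8 neuronal labels Acan ranged from 0 to 7.54 CPM, apart from L6 IT with 55.2 and 12.2 CPM (11 and 5 UMIs). Uncalled barcodes held 4.14 and 13.0 CPM (2 and 12 UMIs). Both Pvalb sums were above every other sum, with no overlap.

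The same held for single nuclei. An Acan UMI was found in 66 of 119 male Pvalb nuclei (55.5%, exact 95% interval 46.1 to 64.6) and in 94 of 150 female ones (62.7%, 54.4 to 70.4). In Micro-PVM nuclei the share was 0.355% and 0.599%, at median depths of 1298.5 and 3012.5 UMIs against 4576 and 11808 in Pvalb. After thinning every nucleus to 1000 UMIs, which left out 1 Pvalb nucleus per library, the Pvalb shares were 16.9% and 15.4% and the Micro-PVM shares 0.162% and 0.215%, so the label stood apart from background at equal depth. No single nucleus carried the level, since the highest held 6.21% and 7.21% of the UMIs. Of the Acan-positive Pvalb nuclei, 52 of 66 and 73 of 94 also held a Tnr UMI, close to the 72.3% and 78.7% of all Pvalb nuclei that did. Intervals and limits given here cover counting error only.

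**Figure D2:**
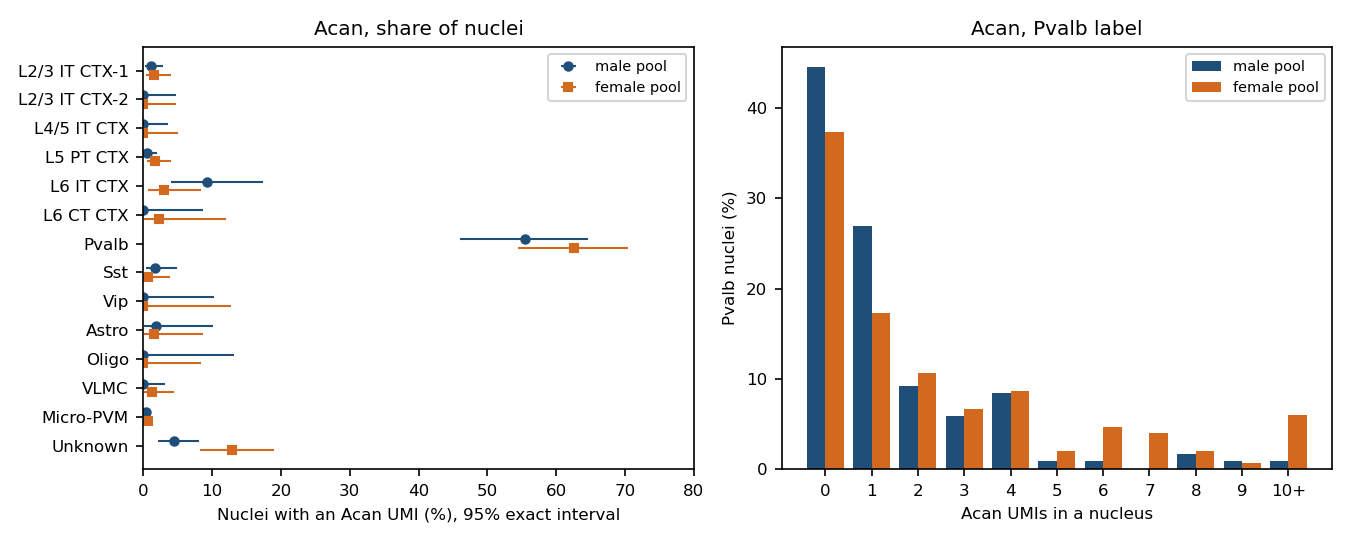
Left, share of nuclei with an Acan UMI (%, x axis) by label, with exact 95% intervals (bars); right, share of Pvalb nuclei (%, y axis) by number of Acan UMIs (x axis), for the male (blue) and female (orange) pool. Pvalb shares of 55.5% and 62.7% lie clear of all other labels, and 32 of the 66 positive male nuclei and 26 of the 94 positive female nuclei held 1 UMI.

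To ask which net genes set Pvalb nuclei apart, the Pvalb sums were compared with the mean of the other 8 neuronal labels. Every comparison between labels was fitted with edgeR's quasi-likelihood model and its p-values were adjusted (Benjamini-Hochberg) over 11054 genes. In these fits 8 of the 9 members passed the filter on low counts and Hapln4 did not. Label transfer drew on these very transcripts, so groups are in part defined by the genes compared, and the p-values measure the spread between the 2 pools and not between animals. Of the 8 members, 3 passed, all higher in Pvalb: Acan, Bcan and Tnc, where 13.5% of all genes passed (9.07% higher and 4.43% lower).

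Acan was higher in Pvalb by 7.80 ± 0.37 on the log2 scale (SE, adjusted p = 9.54e-14). Because it was at 0 in some labels, the fitted value depends on the model's prior, and the summed nuclei give 254 against 4.70 CPM (male) and 222 against 3.63 CPM (female), a ratio of 54.1 and 61.2. Bcan was higher by 2.20 ± 0.62 (adjusted p = 0.0148), from 9 and 15 UMIs at 14.2 and 7.74 CPM. L6 IT nuclei had as much, 15.1 and 7.31 CPM from 3 UMIs per library. Those Pvalb Bcan levels are below the 29.0 and 11.96 CPM of uncalled barcodes.

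Tnc was called higher in Pvalb (log2 fold change 1.66 ± 0.44, adjusted p = 0.00949), but the libraries did not go the same way when nuclei were summed: 12.6 against 27.4 CPM (male) but 44.4 against 21.3 CPM (female). The male Pvalb sum held 8 Tnc UMIs in 5 nuclei and the female sum 86 in 23. DESeq2 did not call it (adjusted p = 0.0575). Tnr was at 579 and 519 CPM in Pvalb against 420 and 325 CPM in the other neuronal labels (0.60 ± 0.23, adjusted p = 0.0790), and Ncan at 15.8 and 19.1 against 35.1 and 49.1 CPM (-0.89 ± 0.34, adjusted p = 0.0883). With the library as a block both passed, Tnr at 0.0211 and Ncan at 0.0268, for 5 members in all. The share of all genes that passed with the block is not given beside this count.

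Against Sst, the other large inhibitory label, 1 of 8 members passed, where 4.97% of all genes did (2.5% higher and 2.47% lower). Acan was again higher in Pvalb (5.95 ± 0.54, adjusted p = 2.64e-08), with 6 and 2 Acan UMIs in 174 and 143 Sst nuclei. Bcan (2.80 ± 0.86, adjusted p = 0.0593) and Ptprz1 (-1.33 ± 0.45, adjusted p = 0.1) missed the threshold, and with the library as a block they passed at 0.0263 and 0.0256. After subtracting the profile of uncalled barcodes, which removed between 11.9% and 97.4% of the UMIs of a sum, Acan no longer passed against Sst (adjusted p = 0.14). The share set for removal was 25.3% and 37.3% in Pvalb and 29.5% and 44.0% in Sst. Acan is at only 4.14 and 13.0 CPM in the profile that was subtracted, against 254 and 222 CPM in Pvalb. Why the call was lost was not tested.

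Ncan was found at a low level in every neuronal label, with a UMI in 12.9% and 26.8% of all neuronal nuclei. The excitatory sums ranged from 16.4 CPM (L2/3 IT CTX-2, male) to 70.9 CPM (L5 PT, female), and the inhibitory sums from 8.11 CPM to 38.9 CPM, both in Vip. It was highest in L5 PT among neuronal labels on average (48.4 and 70.9 CPM), where 18.5% and 46.2% of nuclei held a UMI, but neuronal labels next to each other in the order of levels overlapped, apart from Sst and Pvalb. In the Unknown label it reached 56.4 and 66.2 CPM. At 1000 UMIs per nucleus the L5 PT shares were 4.36% and 4.50%, close together at equal depth. Micro-PVM nuclei had 5.21 and 4.23 CPM and uncalled barcodes 45.6 and 34.8 CPM, so most male neuronal sums and the neurons summed (33.1 CPM, male) were not above that background, while the female neurons summed were at 43.8 CPM. Summed over labels, Ncan was at 19.3 and 21.7 CPM in inhibitory and 37.9 and 54.4 CPM in excitatory nuclei, lower in inhibitory labels in both libraries.

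Between inhibitory and excitatory labels 3 of 8 members passed, where 17.9% of all genes did (8.74% higher and 9.21% lower). Ptprz1 was higher in inhibitory labels (3.13 ± 0.29, adjusted p = 2.15e-09), and so was Tnc (1.76 ± 0.57, adjusted p = 0.0309), while Ncan was lower (-0.83 ± 0.27, adjusted p = 0.0292). The Tnc call was lost when labels with at least 20 nuclei were admitted, with no usable error (log2 fold change 0.63). Acan had 108 and 122 CPM in inhibitory against 4.31 and 4.14 CPM in excitatory nuclei, but its edgeR error was too large to be used, with 3 of these 9 labels at 0 in both libraries, and DESeq2 called it (2.25, adjusted p = 0.0127).

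Ptprz1 differed in level among the inhibitory labels. Vip nuclei had 422 and 294 CPM (52 and 53 UMIs), Sst nuclei 94.2 and 73.0 CPM and Pvalb nuclei 45.7 and 25.3 CPM, so the libraries of these 3 labels did not overlap. Uncalled barcodes had 41.4 and 64.1 CPM, so Vip was above that background in both libraries and Sst less clearly, while Pvalb was near it (male) or below it (female). The 6 excitatory labels ranged from 0 to 80.3 CPM, the top of that range being L6 IT, and most of these sums were below the uncalled barcodes. At 1000 UMIs per nucleus the Vip shares were 25.8% and 29.6%, the Sst shares 8.62% and 10.5% and the Pvalb shares 3.39% and 3.36%. Without thinning a Ptprz1 UMI was present in 58.8% and 59.3% of Vip nuclei, against 1.54% and 4.66% of Micro-PVM nuclei.

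Tnr was present in every label and was lowest, among neurons, in the label of layer V projection neurons. L5 PT nuclei had 169 and 163 CPM, whereas the other 8 neuronal labels ranged from 268 CPM in the male Vip sum to 674 CPM in the male L6 CT sum. Micro-PVM nuclei had 68.6 and 64.2 CPM. Uncalled barcodes had 292 and 321 CPM, above the L5 PT level and below most other neuronal sums of the same library.

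The study follows Atf3 neurons of layer V and of layer II/III, and in this comparison Tnr was the 1 member of 8 that passed, where 8.54% of all genes did (4.56% higher and 3.98% lower). It was lower in L5 PT (-1.39 ± 0.29, adjusted p = 0.00185), at 169 against 583 CPM (male) and 163 against 442 CPM (female), a ratio of 0.290 and 0.369. At equal depth, thinned to 1000 UMIs, 15.4% and 11.8% of L5 PT nuclei held a Tnr UMI, against 39.8% and 38.5% of L2/3 IT CTX-1 nuclei and 35.8% and 20% of L2/3 IT CTX-2 nuclei. Ncan went the other way in size (0.73 ± 0.32, adjusted p = 0.194). With free RNA subtracted, Tnr was at -2.90 and no longer passed (adjusted p = 0.42).

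Astro nuclei held most of the glial net genes. Of 8 members, 7 passed against the mean of the 9 neuronal labels, 6 higher and 1 lower, where 35.3% of all genes passed (18.8% higher and 16.6% lower). Bcan was at 569 and 242 CPM in Astro against 4.36 and 3.62 CPM over all neuronal nuclei (log2 fold change 6.92 ± 0.34, adjusted p = 6.29e-16), and 66.8% of all Bcan UMIs of the 14 labels were in these nuclei. The share of Astro nuclei with a Bcan UMI was 69.8% and 67.7%, and 38.5% and 24.2% at 1000 UMIs, against 0.0808% and 0.215% of Micro-PVM nuclei. Ptprz1 was at 2147 and 1585 CPM, a ratio to neurons of 62.7 in each library (6.09 ± 0.24, adjusted p = 1.90e-18), and was found in 51 of 53 male and 62 of 62 female nuclei. All 37 male and 42 female Astro nuclei with a Bcan UMI also had a Ptprz1 UMI.

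The lesser members of Astro rested on fewer molecules. Vcan was at 105 and 78.6 CPM (17 and 36 UMIs in 9 and 20 nuclei, 4.17 ± 0.41, adjusted p = 1.54e-09), above the 2.07 and 11.96 CPM of uncalled barcodes. Hapln1 was at 37.1 and 30.6 CPM (6 and 14 UMIs in 5 and 12 nuclei, 5.86 ± 0.81, adjusted p = 1.79e-06), and nowhere else above 7.81 CPM, with 6.21 and 3.26 CPM in uncalled barcodes. Ncan was at 124 and 67.7 CPM (1.21 ± 0.34, adjusted p = 0.00494), so Astro was above L5 PT in the male library and just below it in the female.

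Tnc in Astro (68.1 and 30.6 CPM, 1.63 ± 0.56, adjusted p = 0.0236) came from 3 and 4 nuclei, and all neuronal nuclei summed were at 25.9 and 25.4 CPM. Without the highest nucleus it was 19.1 and 20.5 CPM, below the neurons in both libraries. Tnr was the member that was lower in Astro (-0.95 ± 0.28, adjusted p = 0.00777), at 179 and 268 CPM. Acan, at 6.19 and 15.3 CPM from 1 nucleus in each library, did not pass (2.50 ± 0.99, adjusted p = 0.0521); with the library as a block it did (0.0499), although the summed neurons, Pvalb included, were higher, at 31.2 and 41.9 CPM.

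The highest Tnr and Vcan levels were those of the Oligo label, and there they came from a few nuclei. Tnr was at 1535 and 1291 CPM and Vcan at 240.4 and 229 CPM, and both passed against neuronal labels (1.51 ± 0.23, adjusted p = 5.94e-06, and 5.48 ± 0.41, adjusted p = 8.24e-12). Bcan (3.13 ± 0.91, adjusted p = 0.0109, 1 and 6 UMIs) and Ptprz1 (2.60 ± 0.49, adjusted p = 0.000127) brought the count to 4 of 8, where 23.7% of all genes passed (11.2% higher and 12.4% lower). With the library as a block Ncan passed as well (-2.29, adjusted p = 0.0475). A Tnr UMI was found in 7 of 26 male and 9 of 42 female Oligo nuclei only.

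The 3 nuclei of each library richest in Tnr held 79 of 83 and 247 of 254 Tnr UMIs. The same 3 held 12 of 13 and 42 of 45 Vcan UMIs, and 5 of 6 and 29 of 37 Ptprz1 UMIs. They held 65.3% and 54.0% of the label's UMIs of 6 oligodendrocyte precursor markers, mostly Lhfpl3, and 2.67% and 5.62% of those of 6 mature markers such as Mbp. In the male library the 2 nuclei richest in Tnr held 12 and 19 precursor UMIs and 0 and 1 mature UMIs. In the female library the 2 richest held 46 and 4 precursor UMIs but 55 and 58 mature UMIs. Female Oligo nuclei without a Tnr UMI held a median of 44 mature UMIs. Pdgfra and Cspg4, defining precursor genes, had at most 1 UMI each in any of the 3 richest nuclei of a library. In the 23 and 39 nuclei left, Tnr was at 85.5 and 41.9 CPM, beside 68.6 and 64.2 CPM in Micro-PVM. These nuclei were picked by their Tnr UMIs, so the values are a description, with no test.

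**Figure D3:**
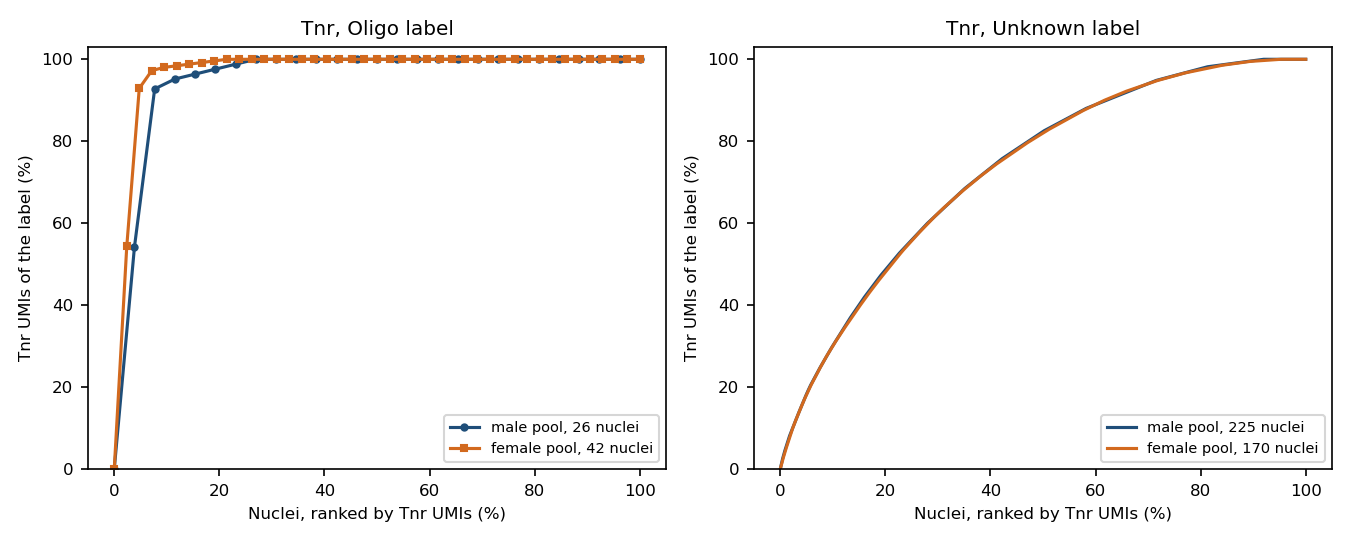
Cumulative share of the Tnr UMIs of a label (%, y axis) over its nuclei ranked from most to fewest Tnr UMIs (%, x axis), for the Oligo label (left) and the Unknown label (right) in the male (blue) and female (orange) pool. In Oligo the top 3 nuclei reach 95.2% and 97.2%, while in Unknown the curve climbs gradually over nearly all nuclei.

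In Unknown nuclei, by contrast, Tnr was broad. It was at 1403 and 1215 CPM and present in 92.0% and 95.3% of 225 and 170 nuclei, at median depths of 3314 and 7918 UMIs, and in 76.1% and 64.5% after thinning to 1000 UMIs. In this label 5 of 8 members passed against neuronal labels, where 30.8% of all genes did (18.1% higher and 12.7% lower): Tnr (1.83 ± 0.20, adjusted p = 1.15e-08), Ptprz1 (4.06 ± 0.26, adjusted p = 1.28e-13), Acan (2.95 ± 0.69, adjusted p = 0.00142) and Ncan (1.01 ± 0.26, adjusted p = 0.00341) higher and Tnc (-2.19 ± 0.78, adjusted p = 0.0329) lower.

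Ptprz1 was at 390.3 and 338 CPM in Unknown nuclei, beside 422 and 294 CPM in Vip. For Acan the direction depends on the other side: its 10.6 and 17.0 CPM were above most single neuronal labels, which the fit averages, but below the 31.2 and 41.9 CPM of all neuronal nuclei summed, where Pvalb dominates. Its share of nuclei was 4.44% and 12.9%, and after thinning 1.41% and 0.592%. The deposited clusters within Unknown differed in level: cluster 7 (190 and 143 nuclei) had Tnr at 1425 and 1241 CPM, and cluster 23 (35 and 27 nuclei) at 912 and 743 CPM. Ptprz1 was at 397 and 351 CPM in cluster 7 and at 239.9 and 86.7 CPM in cluster 23, so both genes were lower in the smaller cluster in both libraries. Cluster 23 held only 38 and 60 Tnr UMIs and 10 and 7 Ptprz1 UMIs. Its median depths were 1089 and 2611 UMIs, against 3722 and 8652 in cluster 7. The difference between the clusters was not tested.

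VLMC nuclei held little of the net. Hapln1, Hapln4 and Acan were at 0 to 2.05 CPM there. Of 8 members, 4 passed against neuronal labels, where 49.5% of all genes did (27.6% higher and 21.9% lower): Vcan (1.85 ± 0.48, adjusted p = 0.00183) and Ptprz1 (1.07 ± 0.37, adjusted p = 0.0167) higher, Ncan (-3.16 ± 0.51, adjusted p = 5.03e-06) and Tnr (-2.29 ± 0.30, adjusted p = 1.42e-07) lower. Vcan, at 32.9 and 11.9 CPM, was above the neuronal 5.71 and 5.16 CPM in both libraries. Uncalled barcodes had 2.07 and 11.96 CPM, so the female level was not above that background. In the male library 1 nucleus held 37.5% of the 16 Vcan UMIs. Ptprz1 was at 16.4 CPM (male) and 94.5 CPM (female), below the summed neurons (34.2 CPM) in the first and above them (25.3 CPM) in the second. Astrocyte markers stood at 1514 and 1529 CPM in this label; their part in the Ptprz1 level was not tested. With free RNA subtracted, none of the 5 calls on Tnr made against neuronal labels or L2/3 IT was kept, nor were those on Acan, Ncan and Tnc in Unknown, on Ncan and Tnc in Astro and in inhibitory labels, or on Tnc in Pvalb.

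**Figure D4:**
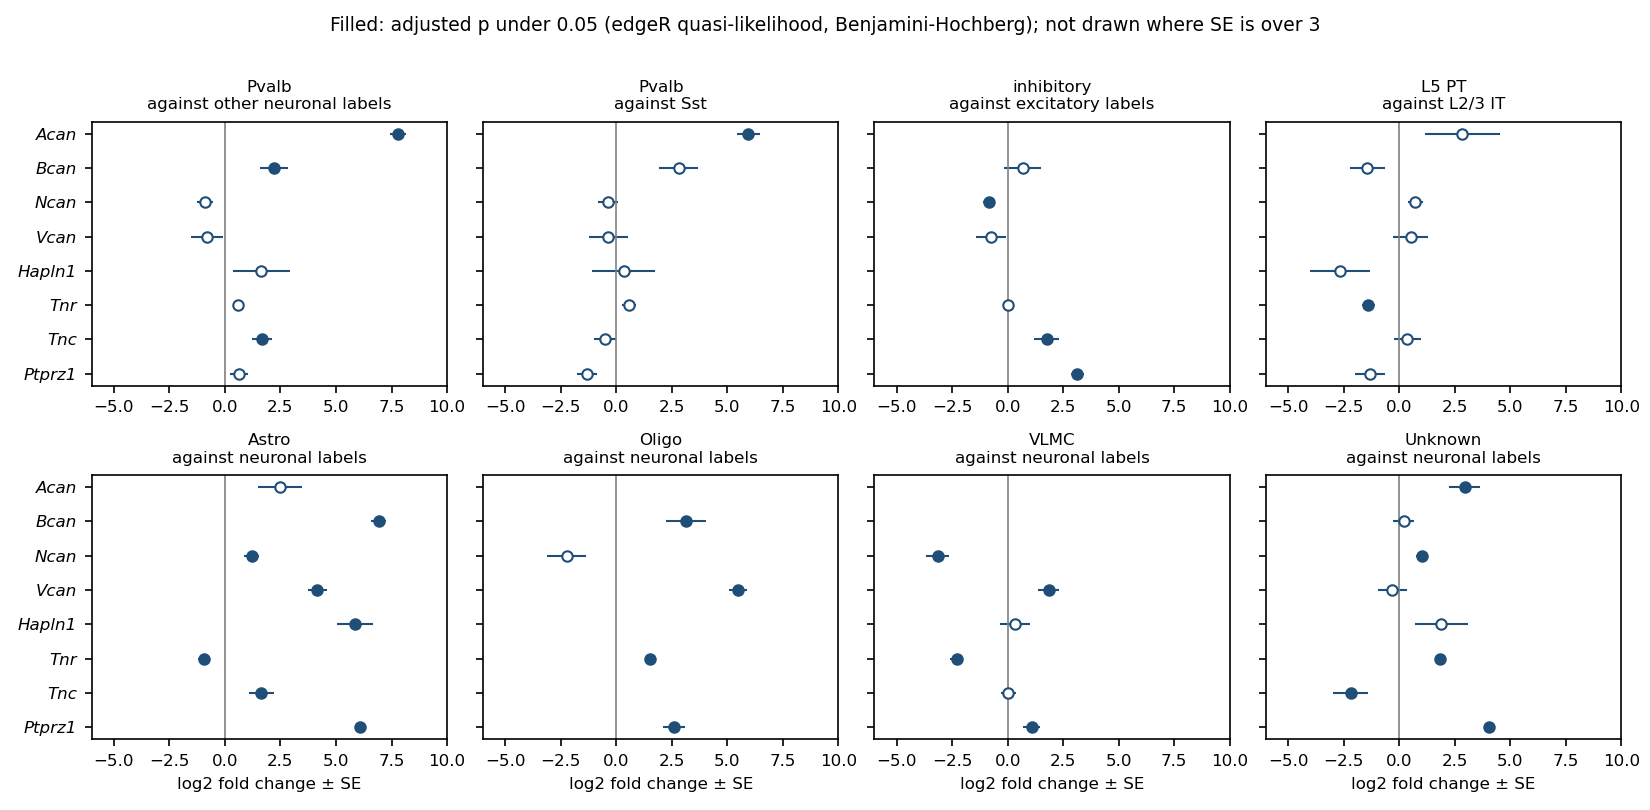
Log2 fold change of 8 members (x axis) in 8 comparisons between labels, fitted over 28 sums. Bars are an SE worked back from the fold change and its quasi-likelihood F statistic. Filled points passed an adjusted p of 0.05 and open points did not. Acan lies farthest right in both Pvalb comparisons (7.80 and 5.95), and Bcan (6.92) and Ptprz1 (6.09) in Astro; 7 values with an SE over 3 are not drawn.

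Hapln1, Hapln4 and Tnc were low or scattered in neurons. Hapln4, the link protein known from net-bearing neurons, was at 0 to 10.0 CPM in every sum, with 26 and 17 UMIs in all neuronal nuclei of the male and female library, and at 12.4 and 5.44 CPM in uncalled barcodes, so it was not detectable above background in neurons at this depth. Hapln1 had 6 UMIs in the neuronal nuclei of each library, at 1.01 and 0.543 CPM. Tnc was patchy: in Sst its 55 and 41 UMIs lay in 14 of 174 and 11 of 143 nuclei, and the 3 richest nuclei held 58.2% and 58.5% of them. Among excitatory labels it was at 22.3 and 37.6 CPM in L2/3 IT CTX-1 and at 26.3 and 16.2 CPM in L5 PT, and at 0 and 1.41 CPM in L4/5 IT. Micro-PVM nuclei had 4.81 and 2.74 CPM and uncalled barcodes 20.7 and 17.4 CPM. Neuronal labels next to each other in the order of Tnc levels overlapped.

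Since nuclei were marked by Atf3 use at 4 to 5 dpi, neuronal nuclei were also split by whether they still held an Atf3 UMI (332 of 1344 male and 516 of 1155 female). Nuclei with an Atf3 UMI were deeper, at a median of 4347 against 3391.5 UMIs and 10966 against 6737 UMIs. Within labels, Tnr was the single member with enough UMIs to test and did not pass (-0.08 ± 0.10, adjusted p = 0.748), where 5.28% of 3975 genes did (1.91% higher and 3.37% lower). Without the filter on low counts Acan did not pass within labels (-0.09 ± 0.23). Over all neuronal nuclei Acan was at 68.2 against 16.3 CPM and 66.2 against 12.5 CPM with and without an Atf3 UMI. Within Pvalb it was at 273 against 218 CPM and 221 against 229 CPM, so the gap seen over all neurons was not found inside the label that holds most Acan.

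Tnc was not tested in that fit. Without the filter on low counts it was called higher with an Atf3 UMI (0.90 ± 0.20, adjusted p = 0.00115), and likewise with sums of at least 20 nuclei (0.85 ± 0.23, adjusted p = 0.0413). Summed over neurons it was at 35.6 against 21.9 CPM and 34.6 against 14.1 CPM. In L5 PT it was at 40.3 against 21.5 CPM and 23.4 against 8.04 CPM, and in the 21 female Pvalb nuclei without an Atf3 UMI it was at 0. Depth moves with this split, and its part in the Tnc values was not tested.

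The wider matrix pathway, a list of 75 further genes of which 53 were tested, did not move in 1 direction between neuronal labels. In Pvalb against other neuronal labels 6 were higher and 7 lower (median log2 fold change -0.12, against 0.06 over all genes), where 9.07% and 4.43% of all genes were. The 15 chondroitin sulfate synthesis genes tested gave no call. Cemip, which takes part in hyaluronan breakdown, was among the higher (366 and 342 CPM against 153 and 181 CPM over all neurons), and the glypican Gpc6 (28.4 and 21.2 CPM) and the protease inhibitor Timp3 (0 and 1.03 CPM) were lower. Adamts15, an aggrecan-cleaving protease, was called higher from 2 and 10 UMIs in Pvalb. Against Sst 2 were higher and 7 lower, where 2.5% and 2.47% of all genes were, with Cemip and the chondroitin synthase Chsy3 (492 and 434 against 179.6 and 139.8 CPM) higher and Timp3 and Gpc5 lower.

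Of 11 tested receptors and ligands of net components, 0 were higher and 3 lower in inhibitory labels, where 8.74% and 9.21% of all genes were. In L5 PT 4 were higher and 4 lower, where 4.56% and 3.98% of all genes were. Of all 53 genes, 4 were higher and 8 lower in inhibitory labels, against the same shares of all genes. Rtn4r, the Nogo receptor, was lower, at 14.2 and 13.2 CPM against 119.7 and 107 CPM in excitatory nuclei, and so was Ptprd, a relative of the proteoglycan receptor Ptprs. The testican Spock3 (401 and 348 against 52.2 and 48.4 CPM) and the glypican Gpc1 were higher. Between L5 PT and L2/3 IT 6 were higher and 5 lower. Cd44, a hyaluronan receptor (413 and 311 CPM in L5 PT, 138 and 115 CPM in L2/3 IT CTX-1), and Itgb1 were higher in L5 PT, and Nptx2, a synaptic pentraxin, and Sema3a, a guidance cue that nets bind, were lower.

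Of 9 tested matrix proteases and their inhibitors, 5 were higher in Astro, 2 in Oligo and 6 in VLMC, and 0 were lower in any of these, where 18.8%, 11.2% and 27.6% of all genes were higher. Over the whole list Astro had 17 genes higher and 12 lower (18.8% and 16.6% of all genes), led by Sdc4 (118 and 116 CPM against 0.839 and 0.181 CPM over neurons) and the protease Adamts9 (111 and 205 CPM), with Spock1 and B4galt7 lower. Oligo had 8 higher and 10 lower (11.2% and 12.4% of all genes), led by Adamts4 and Hapln2, each at 37.0 and 35.6 CPM from 2 and 7 UMIs, with Rtn4r and Sdc3 at 0. VLMC had 23 higher and 15 lower (27.6% and 21.9% of all genes), led by decorin (Dcn, 69.9 and 145 CPM) and Otx2, a homeoprotein that nets bind (146 and 69.7 CPM), with Nptx2 and Spock1 lower. Unknown had 15 higher and 11 lower (18.1% and 12.7% of all genes), with the glypican Gpc4 (262 and 115 CPM against 6.04 and 4.62 CPM over neurons) and the tenascin Tnxb higher and Cd44 (9.57 and 7.57 CPM) and Gpc6 lower. In the Atf3 split 0 were higher and 2, Cntn1 and Ptprd, lower, of 18 tested, where 1.91% and 3.37% of all genes were. Nuclei with an Atf3 UMI were deeper, and nearly all calls of this split were lost when nuclei were thinned to equal depth. The calls on Cntn1 and Ptprd were therefore not both kept there. Whether depth or the fewer UMIs left after thinning ended the calls was not tested.

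As a description, the genes whose log2(CPM + 1) followed each member most closely over the 28 sums were 9230020A06Rik for Acan (Pearson r = 0.71), Myo6 for Bcan (0.82), Cacng8 for Ncan (0.86), Plekhb1 for Vcan (0.90), Thrsp for Hapln1 (0.82), Nkain2 for Tnr (0.89), Ckap4 for Tnc (0.85) and Dpf3 for Ptprz1 (0.83). The sums share libraries and depth. Gfap, the astrocyte filament gene, was the third closest to Bcan (0.82), and Olig2 the third closest to Vcan (0.84). Among the members the closest pair was Bcan and Vcan (0.69) and the most opposed Tnr and Tnc (-0.33).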

How the data were processed

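The files hold counts of UMIs per gene and nucleus, which the authors made with Cell Ranger (10X 3′ chemistry, a GRCm38 pre-mRNA reference with intronic reads counted) and deposited without normalization; the file headers name version 7.0.1 (male) and 7.0.0 (female), and the processing notes 3.1.0. The authors' metadata, deposited with the counts, gave each nucleus its label (Seurat mapping to a motor cortex reference), cluster, and percent of mitochondrial UMIs. Per the labels both libraries form 1 group, each 1 pool, so p-values measure the spread between pools, with no animals in n.

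The members and the gene lists were chosen with earlier results of these data known. Raw UMIs were summed over the nuclei of a label and library (28 sums). Glial labels were taken from nuclei outside the neuron subset, so 41 nuclei with both labels counted as neurons. All 8171 UMI totals equalled those of the table once the plasmid rows (237 UMIs, 0.000698%) were counted, and those rows were then left out. The limits the methods state (6000 genes, 5% mitochondrial UMIs) are exceeded by 104 labelled nuclei, which were kept, and leaving them out was an alternative. No doublet caller was run, and the methods used here name no doublet step. Uncalled barcodes were those with at most 100 UMIs.

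Sums were tested with edgeR 4.0.16 (R 4.3.3; TMM factors, filterByExpr by label, quasi-likelihood test, two-sided), contrasting label means, with Benjamini-Hochberg adjustment over 11054 genes at 0.05, on a script tested on simulated data. Alternatives were RLE factors, no filter, the library as a block, the limits applied, free RNA subtracted (the share set from neuronal or microglial markers), neuronal labels only, labels with at least 20 nuclei, DESeq2 1.42.0, and each library alone, which has no test. A further alternative, without L6 IT and L2/3 IT CTX-2, was chosen after seeing the data. The library pairs the sums, since those of a library come from the same animals: deviations from label means correlated over 91 label pairs at a median of 0.123 (-0.011 to 0.390). Nuclei split by an Atf3 UMI were fitted within label and library (34 sums, 3975 genes). The SE given with an edgeR fold change is its absolute size divided by the square root of the quasi-likelihood F statistic. Shares carry 95% Clopper-Pearson intervals, and a count of 0 allows up to 3 counts. Named genes are the members, per comparison the 2 called pathway genes with the highest and the 2 with the lowest fold change, and the 3 genes most correlated with each member. Of the 75 pathway genes, 74 were found under their symbol. The table of normalized values and the authors' comparisons were not used here.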

Additional observations from a re-analysis of the deposited data

Results flagged for a closer look

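The ratio of Tnc CPM in Pvalb to the other neuronal nuclei was 0.460 (male) and 2.08 (female), so the libraries lay on opposite sides of 1. The same held for Tnc in Pvalb against Sst, at 0.183 (male) and 1.56 (female), with 8 and 86 Tnc UMIs in Pvalb and 55 and 41 in Sst. For Ptprz1 in VLMC against neuronal nuclei the ratio was 0.480 (male) and 3.74 (female), from 8 and 95 UMIs in VLMC. With 1 library of each sex these differences were not tested, and sex, pool and depth cannot be told apart.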

How the results depend on the processing

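Of 637 values of members recomputed under the alternatives, 560 counted as the same. With a test this meant the same side of the threshold, and with 1 library alone a value close to the main one for its SE. Changes of sign in members not called, such as Tnc in L5 PT (0.37, but -0.52 without L6 IT and L2/3 IT CTX-2), are among the 560. Another 18 newly passed, 17 no longer passed, 40 moved with 1 library alone and 2, each called in at least 1 fit, reversed. Of the 17, 14 came from subtracting free RNA, which left 380 genes called for Pvalb against other neuronal labels, 50 against Sst, 633 for inhibitory against excitatory labels, 131 for L5 PT, 2281 for Astro, 1570 for Oligo, 3103 for VLMC and 1609 for Unknown. It left 0 members called against Sst (edgeR; Acan at an adjusted p of 0.14), 1 for inhibitory labels, 0 for L5 PT, 4 for Astro and 1 for Unknown; the cause was not tested, and the subtraction removed most UMIs of some sums. With the library as a replicate block 5 members passed for Pvalb against other neuronal labels and 3 against Sst, where no filter also gave 3, the stated limits 2 and a fit of neuronal labels only 2. The share of all genes that passed under these settings is not set beside these counts. They are therefore not read as particular to the members. The block also brought Ncan past the threshold in Oligo (-2.29, adjusted p = 0.0475) and ended no member's call. The reversals were Tnr for inhibitory against excitatory labels with labels of at least 20 nuclei (-0.52, adjusted p = 0.0260, against 0.03) and Ptprz1 in VLMC in the male library alone (-0.22; 1.61 in the female). DESeq2 did not call Tnc in Pvalb, and leaving out L6 IT and L2/3 IT CTX-2 ended the Tnc call in Unknown (adjusted p = 0.0606). In the Atf3 split 210 genes passed; 366 did without the filter, 124 with sums of at least 20 nuclei and 1 after thinning, and 168 with no replicate block. In both of the first settings 1 member passed, Tnc. RLE factors moved the median of all genes in Oligo from -0.23 to 0.01 on the log2 scale. The label with the highest CPM was the same for 7 of 9 members in each library alone. Few UMIs limit what can be said of Hapln1 and Hapln4, and few nuclei the sums of Oligo and Vip.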
